A study of Mus musculus with 8 samples.

Results

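Genes that encode the TGF-beta ligands, their receptors and the latent TGF-beta binding proteins were compared between the cardiac ventricles of double knockout (DKO) and control (Ctrl) mice. The members were the rows of the gene and isoform tables whose gene name was Tgfb1, Tgfb2, Tgfb3, Tgfbr1, Tgfbr2, Tgfbr3, Ltbp1, Ltbp2, Ltbp3 or Ltbp4. All 10 were found among the 23100 loci of the gene table, with 18 of the 35754 isoforms. All 10 were also among the 12133 genes that the authors' Cuffdiff comparison tested. The DKO group was 4 mice labelled Sox5fl/fl and Sox6fl/fl that carried aMHC-Cre, a recombinase driven by a promoter of cardiomyocytes. The Ctrl group was 4 mice with the same loxP-flanked (fl) alleles of both SoxD transcription factor genes and no Cre. All animals were 4.5 months old. The tables hold 1 level per genotype, pooled over its 4 animals, so no value below carries an error per animal.

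TGF-beta is a secreted cytokine that cells make as a latent dimer. Its own propeptide keeps the dimer inactive, and a latent TGF-beta binding protein ties the complex to microfibrils of the extracellular matrix until integrins, proteases or thrombospondin release it. The free ligand binds the type II receptor, which phosphorylates the type I receptor, and that kinase activates Smad transcription factors. In the heart, TGF-beta is known for driving fibroblasts to make matrix and turn into myofibroblasts.

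Among the 10 members, Tgfb2, Tgfb3 and Ltbp2 were higher in DKO ventricles and none was lower, at q ≤ 0.05 in the authors' deposited table. Ltbp2 was 2.89-fold higher, Tgfb2 1.71-fold and Tgfb3 1.29-fold. Among all tested genes, 4.3% were called higher and 3.06% lower by the same rule. The other 7 members, including the 3 receptors and Tgfb1, were not called, with log2 ratios of DKO over Ctrl between 0.0032 and 0.22. The log2 ratio was above 0 in all 10 members, with a median of 0.15, while 48.9% of the tested genes were above 0, with a median of -0.0042.

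The promoters of the called members show the sequence upstream of the genes that moved. RefSeq windows of the GRCm38.p6 build, covering the 250 bases before an annotated start, were found for 8 members as 12 windows, and Tgfb3 and Tgfbr3 had no entry. Capitals mark the only matches to either of 2 motifs searched on both strands. One was AACAAT, a core bound by Sox proteins, and the other CAGACA, which holds the Smad-binding box.
Tgfb2, chr1:186705990-186706239, minus strand: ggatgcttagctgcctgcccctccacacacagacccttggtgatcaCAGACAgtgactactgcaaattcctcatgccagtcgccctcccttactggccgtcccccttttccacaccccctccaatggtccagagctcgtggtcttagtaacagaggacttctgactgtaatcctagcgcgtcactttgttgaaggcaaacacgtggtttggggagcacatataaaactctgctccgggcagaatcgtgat
Ltbp2, chr12:84876492-84876741, minus strand: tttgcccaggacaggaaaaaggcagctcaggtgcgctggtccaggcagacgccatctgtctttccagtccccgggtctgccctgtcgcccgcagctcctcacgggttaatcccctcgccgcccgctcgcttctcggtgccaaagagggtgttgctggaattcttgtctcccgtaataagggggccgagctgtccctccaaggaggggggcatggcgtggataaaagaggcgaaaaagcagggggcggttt
The Tgfb2 window held 1 CAGACA, from 204 to 199 bases before the start, and the Ltbp2 window held neither motif. Over the 12 windows of the members, 3 held CAGACA, beside 17.1% of the 32851 windows in the table, and 0 held AACAAT, beside 9.42%. The 12 windows are not independent, since Tgfbr1, Ltbp1 and Ltbp4 each gave more than 1. Those of Ltbp4 at chr7:27333649-27333898 and chr7:27333664-27333913 overlap. With so few windows, a difference from these shares was not tested. With 0 windows holding AACAAT, no overlap between the motifs could occur. A missing match says only that these letters are not in these 250 bases.

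**Figure D1:**
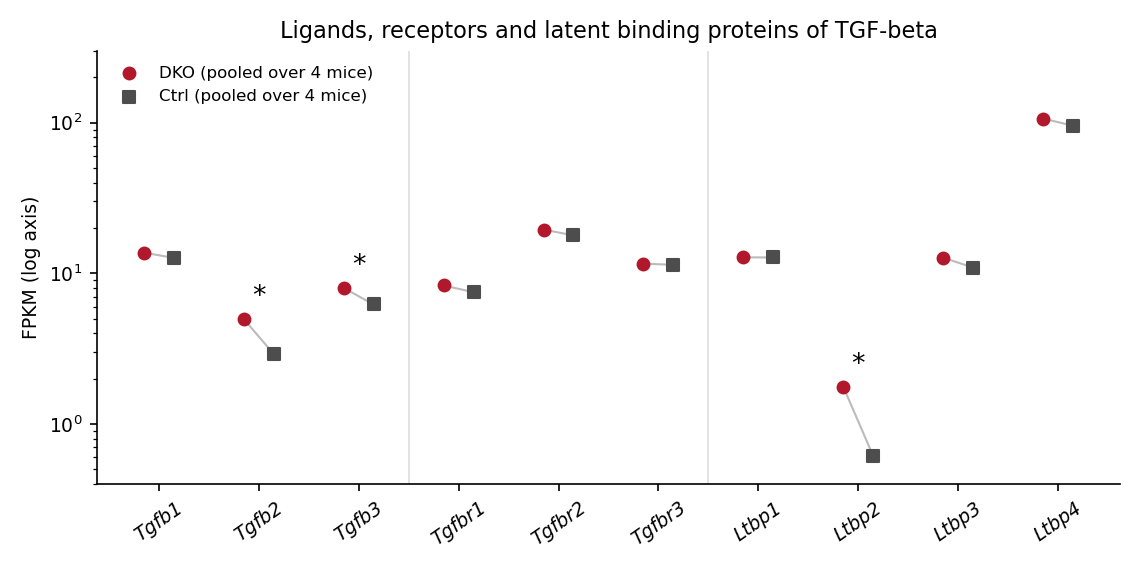
FPKM of each member (log axis) in DKO (red circles) and Ctrl ventricles (grey squares), 1 pooled value per genotype with no error bar; stars mark calls at q ≤ 0.05 in the authors' deposited table. Levels run from Ltbp2, at 1.76 in DKO and 0.610 in Ctrl, to Ltbp4, at 106 in DKO and 95.4 in Ctrl.

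Levels are given in FPKM, fragments counted per transcript length and library size, a scale on which levels of different genes can be set side by side. Tgfb1 (chr7:26472021-26490015 in mm9), the ligand best known from platelets, immune cells and fibrosis, was at 13.7 FPKM in DKO and 12.7 FPKM in Ctrl. Its log2 ratio of 0.12 had q = 0.754 in the authors' deposited table. Tgfb1 was the ligand with the highest level in both genotypes, and the 2 levels lay close together.

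Tgfb2 (chr1:188447065-188529871 in mm9), the ligand that the developing heart needs for its valves and septa, had the lowest level of the 3 ligands, at 4.98 FPKM in DKO and 2.92 FPKM in Ctrl. The log2 ratio of 0.77 had q = 0.00158 in the authors' deposited table. Only 211 of the 12133 tested genes had a larger log2 ratio. The p-value behind that q, 5e-05, is the smallest in the table and was shared by 385 genes, so it does not rank Tgfb2 among them. Its 1 listed isoform, its start site group and its coding sequence were each called higher too, and these repeat the gene's own values.

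Tgfb3 (chr12:87397693-87419991 in mm9), a ligand of palate and lung development, was at 8.01 FPKM in DKO and 6.22 FPKM in Ctrl. The log2 ratio of 0.37 had q = 0.0304 in the authors' deposited table. That call lies near the threshold. The single Tgfb3 isoform has the same levels and the same p-value of 0.0019, but its q was 0.0589 in the authors' deposited isoform table, where 18490 isoforms were tested. Tgfb3 was also absent from the authors' deposited subset of 642 genes past a fold of 1.3, which held Tgfb2 and Ltbp2.

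Stricter or other call rules bore mainly on Tgfb3. With q ≤ 0.01, a rule that called 2.74% of all tested genes higher, and with q ≤ 0.05 plus a fold of at least 1.3, which called 3.6%, the members called higher were Tgfb2 and Ltbp2. Among genes that reached 1 FPKM in both groups, where 3.98% were called higher, Tgfb2 and Tgfb3 were called, since Ltbp2 falls under that level in Ctrl. Among start site groups (2.95% called higher) and coding sequences (2.98%), all 3 were called.

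The 3 ligands together summed to 26.7 FPKM in DKO and 21.8 FPKM in Ctrl. Tgfb1 made up 51.4% of that sum in DKO and 58.1% in Ctrl. Tgfb2 made up 18.6% in DKO and 13.4% in Ctrl, and Tgfb3 30.0% and 28.5%. The order of the ligands, Tgfb1 over Tgfb3 over Tgfb2, was the same in both genotypes.

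None of the receptor genes was called. Tgfbr1 (chr4:47366177-47427796 in mm9), the type I receptor kinase, was at 8.32 FPKM in DKO and 7.50 FPKM in Ctrl, with a log2 ratio of 0.15 (q = 0.555, authors' deposited table). Tgfbr2 (chr9:115996813-116084481 in mm9), the type II receptor that binds ligand first, was at 19.5 FPKM in DKO and 17.8 FPKM in Ctrl, with a log2 ratio of 0.13 (q = 0.596, authors' deposited table). Tgfbr3 (chr5:107535589-107718614 in mm9) encodes betaglycan, a co-receptor without a kinase that presents ligand, above all TGF-beta2, to the type II receptor. Its levels were 11.6 FPKM in DKO and 11.4 FPKM in Ctrl, with a log2 ratio of 0.026 (q = 0.964, authors' deposited table). Without values per animal, no interval of these ratios can be given.

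Latent TGF-beta binding proteins covered the widest range. Ltbp4 (chr7:28090160-28122631 in mm9), which also takes part in elastic fiber assembly, was at 106 FPKM in DKO and 95.4 FPKM in Ctrl and made up 79.6% and 79.7% of the summed level of the 4 genes. The log2 ratio was 0.16 (q = 0.412, authors' deposited table). Its gap of 10.9 FPKM between the genotypes was the largest of any member in absolute terms, yet it was not called.

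Ltbp1 (chr17:75404869-75792307 in mm9), which anchors the latent complex to fibrillin microfibrils, was at 12.8 FPKM in DKO and 12.7 FPKM in Ctrl, a log2 ratio of 0.0032 (q = 0.995, authors' deposited table). Ltbp3 (chr19:5740904-5771401 in mm9), another carrier of the latent complex, known for its part in bone and teeth, was at 12.7 FPKM in DKO and 10.9 FPKM in Ctrl. Its log2 ratio of 0.22, the largest among the members not called, had q = 0.536 in the authors' deposited table.

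Ltbp2 (chr12:86124162-86220705 in mm9) is the member of the family that does not carry latent TGF-beta and instead serves as a microfibril protein. It had the lowest level and the largest ratio of all members, at 1.76 FPKM in DKO and 0.610 FPKM in Ctrl. Its log2 ratio of 1.53 had q = 0.00158 in the authors' deposited table, and 44 tested genes had a larger log2 ratio. By mean level, only 3.69% of the tested genes lay below it. The ratio depends on that low level, since adding 1 FPKM to both values gave a log2 ratio of 0.78. D030025P21Rik, listed at the same locus and not tested, was at 0.140 FPKM in DKO and 0.0339 FPKM in Ctrl, far under the level of Ltbp2. No source used here says whether the counting used strand, so reads where these genes overlap cannot be assigned with certainty.

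Of the 18 isoforms of the members, 17 were tested and 2 were called, the single isoforms of Tgfb2 and Ltbp2, both higher in DKO. Among all tested isoforms, 1.9% were called higher. The genes with several isoforms were Tgfbr1, Tgfbr2, Ltbp1 and Ltbp4, with 12 isoforms in all and none called. In each of these 4 genes, the isoform with the highest level was at a lower value in DKO than in Ctrl, while the gene total was at a slightly higher one.

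Among these 4 genes, Tgfbr2 had the isoform with the smallest p-value. The transcript NM_009371 was at 6.09 FPKM in DKO and 2.54 FPKM in Ctrl, a log2 ratio of 1.26. It made up 31.2% of the gene in DKO and 14.3% in Ctrl. The p-value was 0.0168 and the q 0.262 in the authors' deposited isoform table, so the difference was not called. NM_029575, the main transcript, was at 13.4 FPKM in DKO and 15.3 FPKM in Ctrl, a log2 ratio of -0.19. The 2 transcripts differ in length by 75 bases, and in the GENCODE annotation of GRCm38 the extra piece is coding exon 2 of NM_009371. The exon is shown because it is all that tells the 2 receptor forms apart within the coding sequence, and reads over it or its junctions carry the split between them.
Tgfbr2 exon 2, chr9:116158271-116158345, minus strand: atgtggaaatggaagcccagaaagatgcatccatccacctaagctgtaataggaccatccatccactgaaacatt

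In Tgfbr1, an isoform that differs from the RefSeq transcript NM_009370 and is 12 bases shorter was at 3.33 FPKM in DKO and 1.26 FPKM in Ctrl. The isoform equal to NM_009370 was at 4.99 FPKM in DKO and 6.23 FPKM in Ctrl. The shorter form thus made up 40.0% of the gene in DKO and 16.8% in Ctrl, but its log2 ratio of 1.40 had q = 0.854 in the authors' deposited isoform table. That q is far from the threshold despite the wide ratio.

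Ltbp1 was listed with 2 start site groups. NM_019919, from the first, was at 8.13 FPKM in DKO and 8.58 FPKM in Ctrl. From the second, a shorter form related to it was at 4.15 FPKM in DKO and 2.64 FPKM in Ctrl, and NM_206958 was at 0.494 FPKM in DKO and 1.53 FPKM in Ctrl. The last of these had a log2 ratio of -1.63 (q = 0.811, authors' deposited isoform table), so neither start nor splice form was called.

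In Ltbp4, NM_001113549 was the main isoform, at 48.2 FPKM in DKO and 60.4 FPKM in Ctrl. A form of 5048 bases was at 30.0 FPKM in DKO and 12.9 FPKM in Ctrl. It made up 28.3% of the gene in DKO and 13.5% in Ctrl (q = 0.822, authors' deposited isoform table). Forms of 4994 and 4976 bases were at 18.0 and 9.70 FPKM in DKO, against 17.7 and 3.90 FPKM in Ctrl. The untested form of 5301 bases stayed under 0.5 FPKM in both groups. Levels of overlapping isoforms are estimates from a model of shared reads and are less certain than gene totals.

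**Figure D2:**
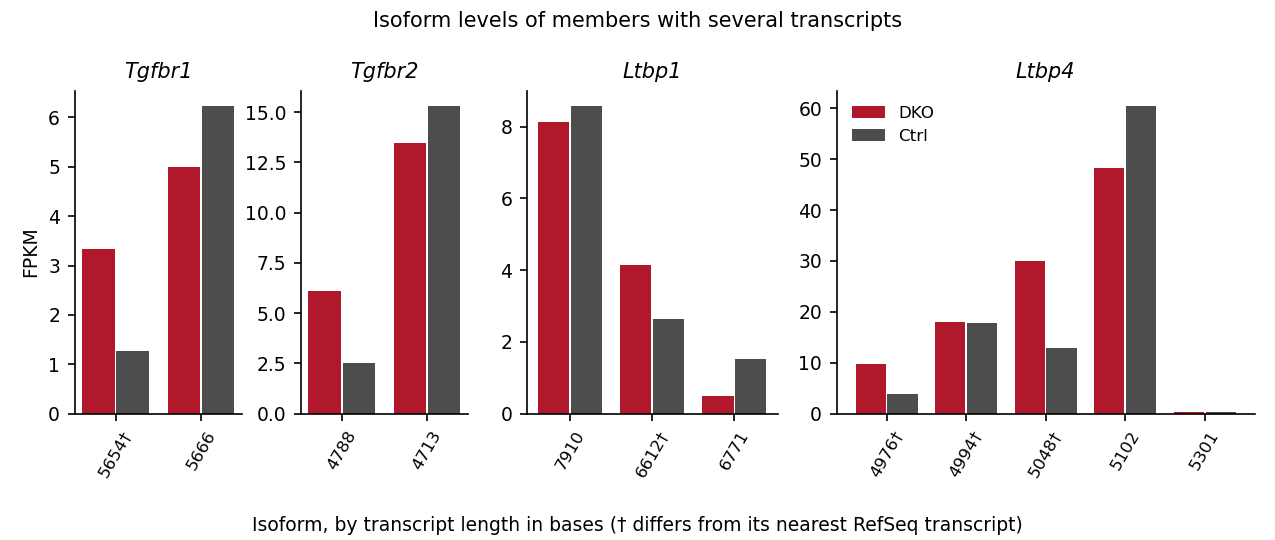
FPKM of the 12 isoforms of Tgfbr1, Tgfbr2, Ltbp1 and Ltbp4 (linear axes from 0, 1 axis per gene) in DKO (red bars) and Ctrl (grey bars), 1 pooled value per genotype with no error bar; isoforms are named by length in bases and a dagger marks those that differ from their nearest RefSeq transcript. The tallest grey bar of each gene exceeds its red neighbour, as for Ltbp4 at 48.2 in DKO and 60.4 in Ctrl, and none of the 12 was called.

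Genes that hold or release latent TGF-beta were the next step of the pathway. Of 20 tested genes of this list, 7 were called higher in DKO, beside 4.3% of all tested genes, and 1 lower, beside 3.06%. The median log2 ratio of the list was 0.24. Like the members and the other lists below, this list was chosen with earlier results of these data known, so its counts only describe it. The largest rise was that of Thbs1, a matricellular activator of latent TGF-beta, at 4.32 FPKM in DKO and 1.98 FPKM in Ctrl, a log2 ratio of 1.13. Adamtsl2, a microfibril-associated protein, was at 7.87 FPKM in DKO and 4.62 FPKM in Ctrl, a log2 ratio of 0.77. Fn1, the fibronectin on which latent complexes are laid down, Emilin1, an elastic fiber protein that limits TGF-beta processing, and the protease gene Mmp2 had log2 ratios of 0.57, 0.41 and 0.40. Chosen after their values were seen, the other called genes were Fbn1, the fibrillin of the microfibril, with a log2 ratio of 0.38, and Lrrc32, a membrane anchor of latent TGF-beta, with 0.33. The gene called lower was Itgb6, the integrin subunit whose heterodimer with alpha v activates latent TGF-beta, at 4.65 FPKM in DKO and 6.12 FPKM in Ctrl. Each of these 8 genes had a q between 0.00158 and 0.0425 in the authors' deposited table.

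Of 13 tested co-receptors and extracellular or membrane modulators, 3 were called higher, beside 4.3% of all tested genes, and none lower, beside 3.06%. The median log2 ratio of the 13 was 0.11. The 3 called genes were Bgn and Dcn, small leucine-rich proteoglycans that bind TGF-beta, and Bambi, a decoy receptor without a kinase. Bgn is counted again among the induced genes below, and Dcn again among the fibroblast markers, so these calls are not particular to this list. Bgn was at 194 FPKM in DKO and 129 FPKM in Ctrl, Dcn at 465 FPKM in DKO and 376 FPKM in Ctrl, and Bambi at 5.47 FPKM in DKO and 4.04 FPKM in Ctrl. Their q-values were 0.00158, 0.0217 and 0.00407 in the authors' deposited table.

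Beside 4.3% of all tested genes called higher and 3.06% lower, the Smad proteins and their intracellular regulators held no called gene of 19 tested. Their median log2 ratio was -0.023. Their most abundant members were Ppm1a, a Smad phosphatase, at 73.8 FPKM in DKO and 80.2 FPKM in Ctrl, Usp15, a deubiquitinase of the receptor complex, at 37.1 FPKM in DKO and 37.6 FPKM in Ctrl, and Tab2, an adaptor of the TAK1 kinase, at 25.7 FPKM in DKO and 28.9 FPKM in Ctrl. At an unadjusted p under 0.05, 1 of the 19 passed in the authors' deposited table, beside 16.5% of all tested genes. This was Tgif1, a Smad corepressor gene, at 3.58 FPKM in DKO and 2.67 FPKM in Ctrl (q = 0.207).

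Among genes that TGF-beta is known to induce in mesenchymal cells, 17 of 35 tested were called higher and 1 lower, with a median log2 ratio of 0.34. The shares called over all tested genes were 4.3% higher and 3.06% lower. This list too was chosen with earlier results of these data known, so the comparison with these shares is not an independent test. Tnc, a matricellular glycoprotein gene, was at 1.15 FPKM in DKO and 0.185 FPKM in Ctrl (log2 ratio 2.63), a wide ratio over a low level in Ctrl. Ctgf, the matricellular protein gene often used as a readout of TGF-beta, was at 108 FPKM in DKO and 47.3 FPKM in Ctrl, Postn, a marker of activated fibroblasts, at 33.5 FPKM in DKO and 15.4 FPKM in Ctrl, and Comp, a matrix protein gene, at 1.76 FPKM in DKO and 0.949 FPKM in Ctrl. These 4 had q-values between 0.00158 and 0.00407 in the authors' deposited table. The list shares 7 genes with the other pathway lists, Thbs1 among them, as well as 3 with the fibroblast markers (Col1a1, Col1a2 and Col3a1) and 3 with the smooth muscle markers (Acta2, Tagln and Cnn1). Of the 29 tested genes that stand in no marker list, 13 were called higher, beside 4.3% of all tested genes. The marker lists are short, so this does not set the 13 apart from fibroblast genes, and Postn is among them. Fn1, Thbs1 and Bgn, also among the 13, are counted in other pathway lists too. Smad7, Skil and Pmepa1, early targets that feed back on the pathway, were not called, with log2 ratios of 0.15, 0.081 and 0.12.

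Chosen after their values were seen, Igfbp3 was the induced gene called lower, at 17.8 FPKM in DKO and 22.4 FPKM in Ctrl (q = 0.0279, authors' deposited table). Timp1, a protease inhibitor gene, had the widest ratio among the induced genes that were not called, at 10.9 FPKM in DKO and 2.50 FPKM in Ctrl (q = 0.0886, authors' deposited table). A wide ratio was therefore not enough for a call.

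**Figure D3:**
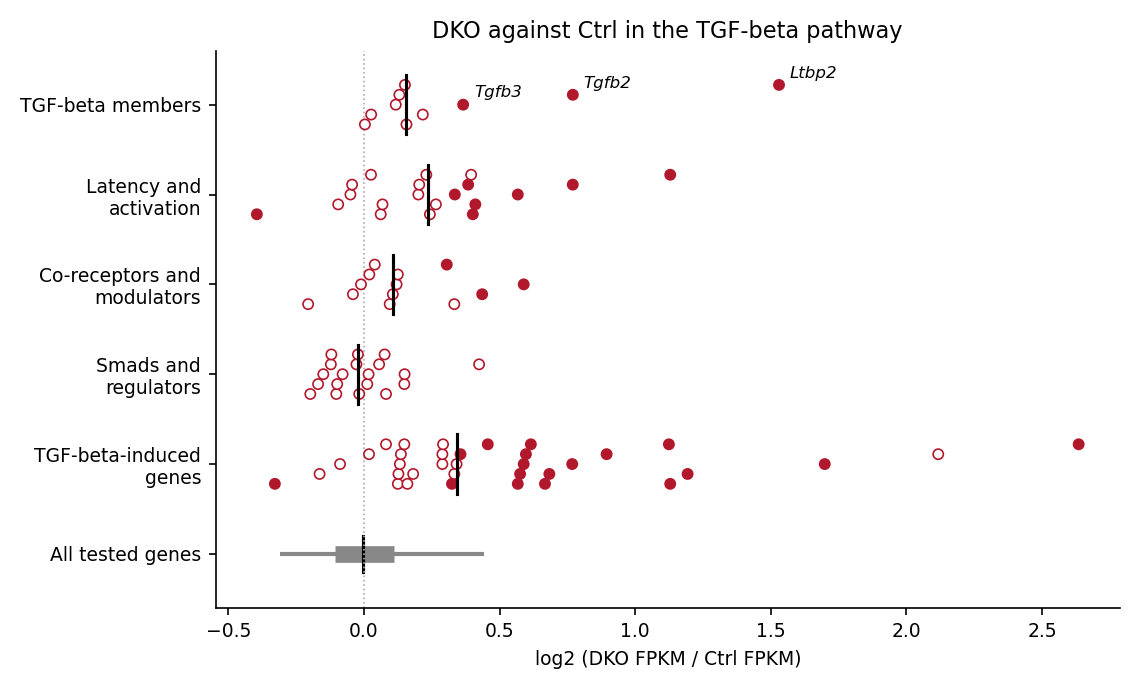
Log2 ratio of DKO over Ctrl FPKM for the 10 members and the tested genes of 4 pathway lists; filled points mark calls at q ≤ 0.05 in the authors' deposited table, black ticks are medians, and for all tested genes the thick and thin bars span 25% to 75% and 5% to 95% of genes. The Smad list centres at -0.023, and the induced genes at 0.34.

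Markers of other cells moved in the same comparison. Over all tested genes, 4.3% were called higher and 3.06% lower, and the marker counts stand beside these shares. Of the fibroblast markers, 9 of 15 were called higher and none lower (median log2 ratio 0.31), and their summed level was 1580 FPKM in DKO and 1280 FPKM in Ctrl. Macrophage markers were called higher in 12 of 15, with a median of 0.60 and sums of 434 FPKM in DKO and 280 FPKM in Ctrl. Fibroblasts and macrophages both make TGF-beta, and the part of these cells in the higher Tgfb2, Tgfb3 and Ltbp2 was not tested. In RNA of whole ventricles, more cells of a type and more RNA per cell cannot be told apart.

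Endothelial and cardiomyocyte markers held no called gene of 12 each, beside 4.3% of all tested genes called higher and 3.06% lower. Their median log2 ratios were -0.081 and -0.21. The log2 ratio was below 0 in 10 of the 12 endothelial markers and in all 12 cardiomyocyte markers. The summed levels were 569 FPKM in DKO and 607 FPKM in Ctrl for endothelial markers, and 80711 FPKM in DKO and 94919 FPKM in Ctrl for cardiomyocyte markers. Of smooth muscle and pericyte markers, 1 of 12, Acta2, was called higher, with sums of 921 FPKM in DKO and 857 FPKM in Ctrl. Platelet and red cell markers held no called gene of 5, with sums of 1266 FPKM in DKO and 1232 FPKM in Ctrl. Most of these sums came from the hemoglobin genes Hba-a1 (793 FPKM in DKO, 774 FPKM in Ctrl) and Hbb-b1 (429 and 416 FPKM). Platelets are a possible source of Tgfb1, and their tested markers were Pf4 and Ppbp. Pf4 was at 25.7 FPKM in DKO and 22.3 FPKM in Ctrl, and Ppbp at 2.30 and 2.28 FPKM. No marker of any list was listed at 0.

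**Figure D4:**
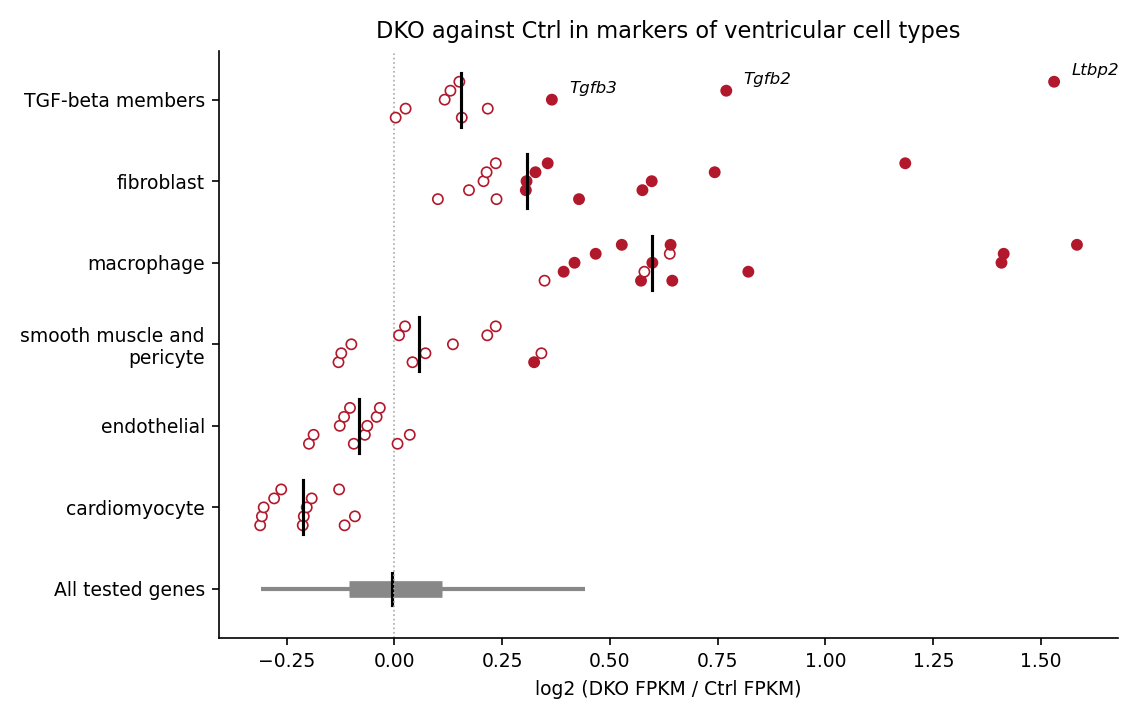
Log2 ratio of DKO over Ctrl FPKM for the 10 members and the tested markers of 5 ventricular cell types, drawn with the same symbols as the plot of pathway lists. Fibroblast and macrophage markers centre at 0.31 and 0.60, above the members at 0.15, and cardiomyocyte markers at -0.21.

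The tissue label was checked against defining markers. Myl2, the ventricular myosin light chain, was at 17014 FPKM in DKO and 20639 FPKM in Ctrl, while the atrial genes Myl7 and Sln were at 0.140 and 0.0671 FPKM in DKO and 0.192 and 0.367 FPKM in Ctrl. Of 5 tested genes of the atrial list, 3 were called higher, beside 4.3% of all tested genes. The 3 were Nppa (1303 FPKM in DKO, 464 FPKM in Ctrl), Pam (366 and 279 FPKM) and Dkk3 (1.59 and 0.804 FPKM). Of these, Nppa is also a ventricular stress gene. Myl4 (3.58 FPKM in DKO, 3.69 FPKM in Ctrl) and Nr2f2 (3.76 and 3.56 FPKM) were not called. Levels near 0 thus held for Myl7 and Sln and not for the whole atrial list. Sox6, a targeted gene, was at 1.69 FPKM in DKO and 3.39 FPKM in Ctrl (q = 0.00158, authors' deposited table), and Sox5, not tested, was at 0.497 FPKM in DKO and 0.369 FPKM in Ctrl. The Sox5 levels run against the knockout label, while those of Sox6 go with it, and neither gene was measured by cell type or within its deleted exons. Since only DKO mice carried Cre, the presence of Cre and the deletion it was meant to make cannot be told apart.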

How the data were processed

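Ventricular RNA was measured in 4 DKO and 4 Ctrl mice. Per the labels' protocols, atria were removed, Trizol was used to isolate RNA, and TruSeq libraries were sequenced single-end on an Illumina instrument. Per the submitters' processing notes, the authors used TopHat2 2.0.9, Cufflinks 2.1.1 and Cuffdiff 2.1.1 with the mm9 build. The sources used here give neither the gene annotation nor the settings. The 5 deposited tables hold the authors' FPKM values, 1 per genotype, and their p-values and q-values, per the file headers. The deposited log2 fold change of the subset sets Ctrl over DKO, per the file headers, so each log2 ratio was recomputed from the FPKM values as DKO over Ctrl. Adjusting the deposited p-values of all 12133 tested genes by Benjamini-Hochberg gave the deposited q-values with differences of at most 5.18e-07. Read depth is unknown here, so no interval was computed. No test across animals was run, since values per animal are not among the files used here.

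A gene was called at a q of at most 0.05. Described lists were 4 of the pathway and 7 of cell markers (cardiomyocyte, fibroblast, macrophage, endothelial, smooth muscle and pericyte, platelet and red cell, atrial). The members and lists were chosen with earlier results of these data known. All members were named, and in each pathway list up to 6 called genes with the largest change, or the 3 with the highest FPKM where none was called. Single markers, Smad7, Skil, Pmepa1 and Tgif1 were named outside that rule, after their values were seen. Of the genes this rule takes, 1 is not reported here. Positions were written counting from 1. Alternatives covered thresholds, an FPKM filter, pseudocounts, scaling and other feature levels. The calling step was tested on simulated data. Python 3.11.15, pandas 2.3.3, numpy 2.4.6 and matplotlib 3.10.9 were used.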

Additional observations from a re-analysis of the deposited data

How the results depend on the processing

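The 3 members called higher became 2 at a q of at most 0.01, with a fold of at least 1.3 and among called isoforms, each time without Tgfb3. They became 2 among genes that reach 1 FPKM in DKO and in Ctrl, which leaves out Ltbp2, and stayed at 3 among start site groups and coding sequences. No member was called lower under any of these 6 settings. The 7 higher genes of latency and activation became 4 among called isoforms and 4 among called coding sequences, and the 1 lower gene, Itgb6, became 0 at a q of at most 0.01. The 1 lower induced gene, Igfbp3, became 0 at a q of at most 0.01, with a fold of at least 1.3 and among called isoforms. In place of the gene total, the isoform with the highest level gave log2 ratios of -0.32 for Tgfbr1, -0.19 for Tgfbr2, -0.077 for Ltbp1 and -0.33 for Ltbp4, each the other way from the gene. Coding sequences summed gave -0.32 for Tgfbr1, -0.23 for Ltbp1 and -0.33 for Ltbp4, and the main start site group of Ltbp1 gave -0.077. The coding sequence table lists no entry for some of the isoforms. None of these reversed values was called. Pseudocounts of 1 and 0.1 and a shift of the median log2 of tested genes to 0 left the direction of all 10 members as it was.

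No paired analysis was possible because each deposited table holds 1 value per genotype and none per animal. Leaving out each animal in turn was not run for the same reason, and the spread between animals is unknown.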
